A study of Mus musculus with 2 samples.

Results

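The MHC class I genes described here are 10 of the 32285 genes counted by 3' droplet sequencing of single thymic cells of the regulatory T (Treg) lineage. They were taken by symbol, without regard to their values. They are the classical class Ia heavy chains H2-K1 and H2-D1, the shared light chain B2m, and 7 non-classical class Ib heavy chains, H2-Q4, H2-Q6, H2-Q7, H2-T3, H2-T22, H2-T23 and H2-M3. Levels are unique molecular identifiers (UMIs, each standing for 1 captured transcript) per 1000000 UMIs of the same cells, written CPM. Because 3' tags give about 1 count per captured molecule whatever the transcript length, levels can be set beside each other between genes, although capture may differ from gene to gene.

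Cells came from 1 mouse of each genotype. The Lta-/- mouse carried the Foxp3eGFP reporter and lacked Lta, the gene of lymphotoxin alpha, a cytokine of the tumour necrosis factor family. The control mouse carried the Foxp3eGFP reporter alone, so both mice share the allele that marks Foxp3-expressing cells. The labels name C57BL/6 and do not say in which strain the Lta deletion was made. CD8+ and CD11c+ cells were depleted by magnet, and cells with CD25, eGFP or both were then sorted within the CD4+CD8-CCR6-CD3e+ gate. From each genotype, 20000 sorted cells were tagged with a hashtag antibody and pooled into 1 capture. After filtering, 2244 Lta-/- cells with 14054827 UMIs (median 5395 per cell) and 2209 Foxp3eGFP cells with 15010916 UMIs (median 5547) were compared. With 1 mouse per genotype there is no replicate, so no test was made between mice, and every interval given is a 95% interval that covers counting error only. Lta itself had 72 UMIs in Lta-/- cells and 509 in Foxp3eGFP cells. The T cell markers Cd3e (95.1% of cells) and Cd3d (98.2%) were near universal, Cd4 was found in 59.4% and Cd8a in 2.72%. Foxp3 was found in 18.5% of Lta-/- cells and 21.3% of Foxp3eGFP cells, and Il2ra, which encodes CD25, in 19.6% and 24.2% of the same cells, so most cells held no UMI of the genes behind the gate.

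Class I molecules display peptides on the surface of nearly all nucleated cells. A heavy chain folds around a peptide from the cytosol and is held by beta-2-microglobulin, and the proteasome, the TAP transporter and tapasin supply and load the peptide. Class Ia molecules are highly polymorphic and present to CD8+ T cells, while class Ib molecules are less variable and often serve narrow tasks in the thymus and at barriers. Transcription of most class I genes depends on NLRC5, on NF-kB sites and on an interferon-stimulated response element in the promoter, and thymocytes are known to gain surface class I as they mature.

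The class Ia genes made up most heavy chain transcripts. Over both mice, H2-K1 stood at 1582 CPM and was found in 95.9% of cells, and H2-D1 stood at 1339 CPM in 98.0% of cells. B2m, the light chain, stood at 1436 CPM in 98.5% of cells, close to either class Ia gene and below their sum. H2-K1 gave 40.2% and H2-D1 34.0% of all heavy chain UMIs counted here. The 7 class Ib genes spanned a wide range below them. H2-T23, which encodes Qa-1, the presenter of class I leader peptides to CD94-NKG2A receptors, led with 330 CPM in 79.5% of cells. H2-Q7, a Qa-2 gene, followed with 256 CPM in 56.2% of cells, and H2-T22, a ligand of some gamma-delta T cell receptors, with 211 CPM in 66.4%. H2-Q4 had 143 CPM, H2-M3, which presents N-formylated peptides, 47.5 CPM, and H2-Q6, another Qa-2 gene, 20.6 CPM. H2-T3, which encodes the thymus leukaemia (TL) antigen, a ligand of CD8 alpha homodimers whose presence on thymocytes is known to differ between inbred strains, had 3.65 CPM in 2.25% of cells. H2-Q6 and H2-Q7 belong to a group of near-identical genes, and the sources used here do not give how reads shared between them were counted, so their split is uncertain. No cell type that lacks class I was in the sort, so the free RNA level of these genes could not be read from one.

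**Figure D1:**
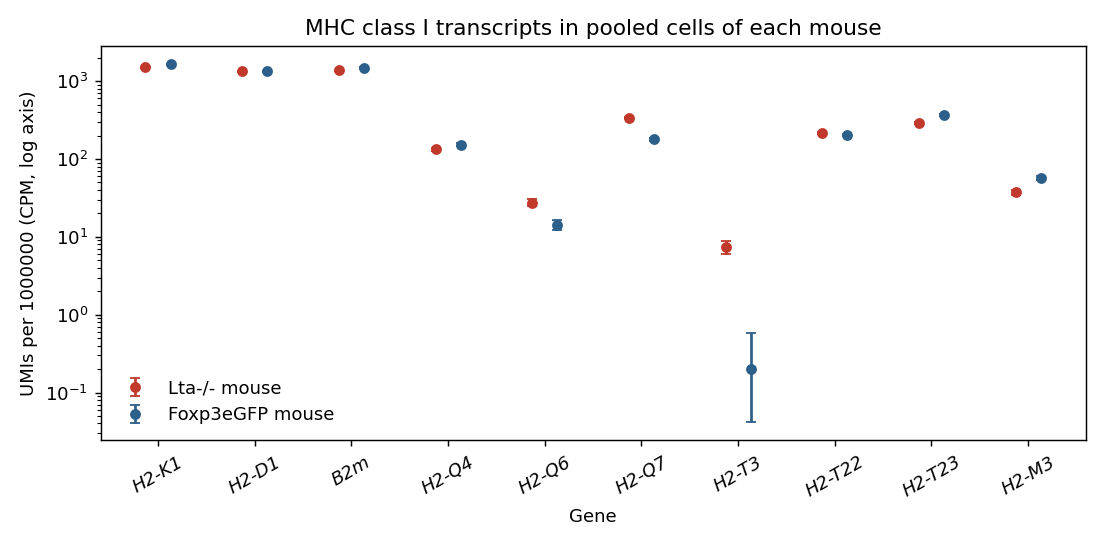
Level of each class I gene in the pooled cells of each mouse, in CPM on a log axis, with the Lta-/- mouse left of the Foxp3eGFP mouse and bars for exact Poisson 95% intervals. H2-K1, H2-D1 and B2m sit above 1000 CPM in both mice, and H2-T3 is the gene whose points stand farthest apart, at 7.33 CPM in Lta-/- cells and 0.200 CPM in Foxp3eGFP cells.

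The 9 heavy chain genes among the 10 lie on chromosome 17 and B2m lies on chromosome 2. In GRCm38 coordinates, H2-K1 spans chr17:33996012-34000619, 1206 kb from Lta, and H2-D1 spans chr17:35263094-35267497, 60.9 kb from Lta. The Q genes follow, with H2-Q4 at chr17:35379617-35384674, H2-Q6 at chr17:35424850-35430055 and H2-Q7 at chr17:35439140-35443773. H2-T23 spans chr17:36029977-36032701, H2-T22 spans chr17:36037128-36042742 and H2-T3 spans chr17:36185571-36190151. H2-M3 lies at chr17:37270234-37274485, 2068 kb from Lta, and B2m at chr2:122147687-122153082.

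Promoter sequences are shown because 9 of the 10 genes hold an interferon-type motif within the 250 bases before a RefSeq transcript start, and H2-T3 does not. RefSeq entries of GRCm38.p6 matched all 10 genes. For H2-K1, the start used was the nearer of 2 to the gene's end and lies 272 bases inside the span given above, so its window lies within that span. The H2-Q7 start lies 15 bases inside its span. Capitals in the lines below mark the interferon-type motif on either strand, GAANNGAAA in H2-K1, H2-D1, H2-Q4, H2-Q6, H2-Q7 and H2-M3 and GAAANNGAA in B2m, H2-T22 and H2-T23. Capitals also mark GGGATTCCC, an NF-kB type motif, searched on both strands. Each line runs 5' to 3' on the strand of its gene.
H2-K1, chr17:34000413-34000472, minus strand: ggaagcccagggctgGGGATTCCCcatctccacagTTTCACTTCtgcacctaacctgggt
H2-D1, chr17:35262909-35262968, plus strand: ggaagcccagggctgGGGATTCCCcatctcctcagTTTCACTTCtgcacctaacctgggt
B2m, chr2:122147513-122147572, plus strand: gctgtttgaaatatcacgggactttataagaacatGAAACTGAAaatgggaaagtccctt
H2-Q4, chr17:35379429-35379488, plus strand: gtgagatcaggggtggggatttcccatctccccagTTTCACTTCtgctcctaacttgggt
H2-Q6, chr17:35424663-35424722, plus strand: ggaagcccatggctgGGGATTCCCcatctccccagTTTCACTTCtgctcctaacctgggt
H2-Q7, chr17:35439007-35439066, plus strand: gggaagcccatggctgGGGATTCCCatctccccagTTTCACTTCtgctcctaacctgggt
H2-T22, chr17:36042908-36042967, minus strand: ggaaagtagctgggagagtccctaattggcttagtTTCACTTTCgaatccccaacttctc
H2-T23, chr17:36032800-36032859, minus strand: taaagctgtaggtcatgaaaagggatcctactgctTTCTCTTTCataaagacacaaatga
H2-M3, chr17:37270098-37270157, plus strand: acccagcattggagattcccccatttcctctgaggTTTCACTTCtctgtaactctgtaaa
H2-K1, H2-D1, H2-Q6 and H2-Q7 hold both motifs in these windows, and the other 5 genes hold the interferon-type motif without GGGATTCCC. GAANNGAAA was found in 6.34% of the 27025 promoter windows of the same length, GAAANNGAA in 7.16% and either of them in 12.6%. GGGATTCCC was found in 84 windows (0.311%). The CCAAT letters were in 9 of the 10 genes and in 34.5% of windows. The motifs were chosen after the sequences and the values were seen. GAAANNGAA and GGGATTCCC were shortened by 1 letter after a first search, and the shorter forms are found in more windows. A match is a description of letters, not of binding. The 250 bases before the H2-T3 start held none of the 4 motifs.
H2-T3, chr17:36190152-36190401, minus strand: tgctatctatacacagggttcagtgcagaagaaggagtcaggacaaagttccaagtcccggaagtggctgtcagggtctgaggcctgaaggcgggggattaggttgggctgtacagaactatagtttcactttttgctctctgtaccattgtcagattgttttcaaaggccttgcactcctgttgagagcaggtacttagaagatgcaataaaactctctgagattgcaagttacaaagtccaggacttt

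The clearest difference between the mice was in class Ib genes and went in both directions. A gene was called when it differed at least 1.5-fold with at least 100 UMIs in the groups compared. By that rule 3 of the 10 genes were higher in Lta-/- cells (H2-Q6, H2-Q7 and H2-T3), against a background of 1.39% of 9661 genes, and 1 was lower (H2-M3), against 2.20%. H2-T3 passed the floor of 100 UMIs only through its 103 UMIs in Lta-/- cells, so its place in this count depended on its direction. The median log2 ratio of the 10 genes was -0.06, beside 0.0019 over all 9661 genes.

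H2-T3 had 103 UMIs in Lta-/- cells and 3 UMIs in Foxp3eGFP cells, or 7.33 CPM against 0.200 CPM. The ratio was 36.7-fold (12.2 to 181), the third highest of the 9661 genes with at least 100 UMIs. H2-T3 passed that floor only through the Lta-/- cells. A UMI was held by 4.32% of Lta-/- cells (3.52% to 5.25%) and 0.136% of Foxp3eGFP cells (0.0280% to 0.396%). With 103 UMIs over 2244 Lta-/- cells, this share follows the mean level. It cannot show whether more cells or more transcripts per cell made the difference. With every cell thinned to 3000 UMIs the shares were 2.83% and 0.0485%. Of the 97 Lta-/- cells with H2-T3, 92 held 1 UMI, 4 held 2 and 1 held 3. Marker shares of these 97 cells are set beside those of the other Lta-/- cells, and no test was made. Ccr9 was present in 28.9% of them and 23.2% of the other Lta-/- cells, S1pr1 in 50.5% and 51.5%, Ctla4 in 24.7% and 19.8%, and Mki67 in 10.3% and 7.13%. Their median depth was 5729 UMIs, against 5383.

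H2-Q7 had 4743 UMIs in Lta-/- cells and 2687 in Foxp3eGFP cells, or 337 CPM against 179 CPM, a 1.89-fold higher level (1.80 to 1.98). The share of cells with a UMI was similar, 57.4% of Lta-/- cells and 55.0% of Foxp3eGFP cells. The UMIs per cell with any differed more, at 3.69 in Lta-/- cells and 2.21 in Foxp3eGFP cells, and 690 Lta-/- cells held at least 3 UMIs against 365 Foxp3eGFP cells. H2-Q6 had 27.3 CPM in Lta-/- cells and 14.3 CPM in Foxp3eGFP cells, 1.92-fold higher (1.62 to 2.28). For every 100 H2-Q7 UMIs there were 8.10 H2-Q6 UMIs in Lta-/- cells and 7.96 in Foxp3eGFP cells, so these near-identical genes kept almost the same proportion in the 2 mice.

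H2-M3 was lower in Lta-/- cells, at 37.2 CPM against 57.2 CPM in Foxp3eGFP cells (log2 ratio -0.62, -0.78 to -0.46). It was found in 20.3% of Lta-/- cells and 30.6% of Foxp3eGFP cells. H2-T23 stood at 292 CPM in Lta-/- cells and 365 CPM in Foxp3eGFP cells (log2 ratio -0.32, -0.38 to -0.26), with UMIs in 75.2% and 83.8% of those cells. H2-Q4 stood at 133 CPM and 153 CPM in the same order (log2 ratio -0.20, -0.29 to -0.11). H2-T22 stood at 218 CPM in Lta-/- cells and 204 CPM in Foxp3eGFP cells (log2 ratio 0.093, 0.02 to 0.17). These last 3 differences were each under 1.5-fold.

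Class Ia differed little between the mice. H2-K1 had 1511 CPM in Lta-/- cells and 1649 CPM in Foxp3eGFP cells (log2 ratio -0.13, -0.15 to -0.10). H2-D1, the member nearest to Lta, had 1336 CPM and 1341 CPM, with a log2 ratio of -0.006 (-0.035 to 0.023). B2m had 1378 CPM in Lta-/- cells and 1491 CPM in Foxp3eGFP cells (log2 ratio -0.11, -0.14 to -0.086). Summed class Ia was 2847 CPM in Lta-/- cells and 2991 CPM in Foxp3eGFP cells (log2 ratio -0.071, -0.091 to -0.052). Summed class Ib was 1052 CPM and 972 CPM (log2 ratio 0.11, 0.081 to 0.15). Class Ib genes therefore gave 27.0% of heavy chain UMIs in Lta-/- cells and 24.5% in Foxp3eGFP cells. The class Ib sum holds differences of opposite sign, with H2-Q7 higher and H2-T23 lower in Lta-/- cells.

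Lta lies inside the MHC, so genes beside it were set next to the members by distance. Within 1500000 bases of Lta, 95 genes had at least 100 UMIs and 7.37% were called in either direction, against 3.59% of all 9661 genes, 6.25% of 416 genes on the rest of chromosome 17 and 3.13% of 8880 genes on other chromosomes. Without the members the share beside Lta was 4.60% of 87 genes. The 4 called there were H2-Aa and H2-Ab1, class II genes of antigen-presenting cells, the non-coding A930015D03Rik and Lst1. A930015D03Rik, 812 kb from Lta, had 185 UMIs in Lta-/- cells and 27 in Foxp3eGFP cells, and its span overlaps those of H2-T23 and H2-T22, so reads there may be shared. H2-T3 lies 983 kb from Lta, and the ratios were not tested against distance. The absence of Lta and the chromosome 17 segment that carries the deleted allele cannot be told apart in this design.

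**Figure D2:**
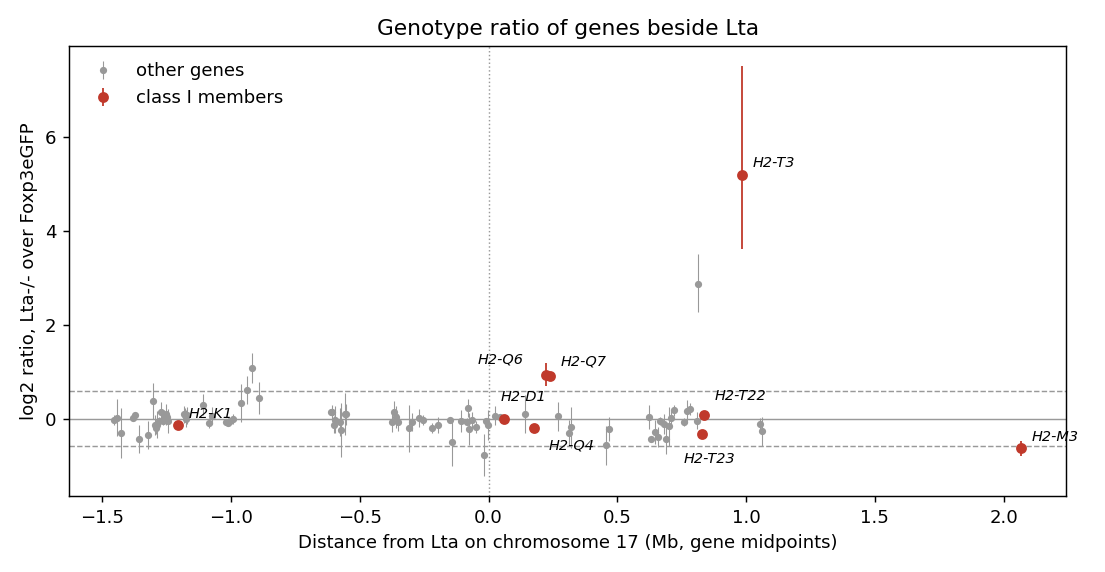
Log2 ratio of Lta-/- over Foxp3eGFP cells for each gene with at least 100 UMIs near Lta, with the class I members in red, by distance of gene midpoints in Mb. Bars are 95% intervals for counting error and dashed lines mark a 1.5-fold difference. H2-T3 and A930015D03Rik (2.87) stand highest, H2-Q6 and H2-Q7 sit above the upper dashed line, and H2-M3 at -0.62 lies below the lower one.

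None of the measured other class I, antigen processing or class I transcription genes was called between the mice. Over all 9661 genes, 3.59% were called in either direction, so the absence of calls in lists of this size is close to the background. Of the other class I heavy chains, 5 had at least 50 UMIs (H2-Q2, H2-Q10, H2-T24, Mr1 and Cd1d1), and none was called in either direction (median log2 ratio 0.095). H2-Q2, a neighbour of H2-Q4, had 104 UMIs in Lta-/- cells and 104 in Foxp3eGFP cells, and H2-Q10 had 181 and 186. Of the 14 antigen processing genes none was called (median -0.041), and of the 18 genes of class I transcription none was called (median -0.09). The type I interferon response list differed. Of its 28 measured genes, 11 were lower in Lta-/- cells and none was higher (median -0.43), beside 2.20% of all 9661 genes called lower and a median of 0.0019. Isg15, an interferon-induced ubiquitin-like protein, had 198 CPM in Lta-/- cells and 342 CPM in Foxp3eGFP cells (log2 ratio -0.79, -0.86 to -0.72). Rsad2, the antiviral enzyme viperin, had 13.8 CPM and 29.0 CPM (log2 ratio -1.07, -1.32 to -0.82). Of 17 interferon-gamma associated genes none was called (median -0.21).

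Cells with a UMI of Ccr9, a homing receptor of immature thymocytes, carried less class I in both mice. Of all cells, 1085 had Ccr9 and 3368 had none. Summed class Ia was 2013 CPM in cells with Ccr9 and 3260 CPM in cells without (log2 ratio -0.70, -0.72 to -0.67), and class Ib was 743 CPM and 1111 CPM (log2 ratio -0.58, -0.62 to -0.54). In Lta-/- cells class Ia stood at 1718 CPM with Ccr9 and 3250 CPM without. In Foxp3eGFP cells it stood at 2272 CPM with Ccr9 and 3270 CPM without. The members called lower with Ccr9 were 4 of 10 (H2-K1, H2-D1, H2-Q6 and H2-Q7), against a background of 3.24%, and 0 were higher, against 4.77%. Their median log2 ratio over all 10 was -0.40, beside 0.086 over all genes. H2-Q7 had 110 CPM in cells with Ccr9 and 310 CPM in cells without (log2 ratio -1.50, -1.60 to -1.39). H2-Q6 had 5.69 CPM and 26.1 CPM (log2 ratio -2.20, -2.67 to -1.76). The T region genes and H2-M3 differed less, with H2-T22 at a log2 ratio of -0.32, H2-T23 at -0.30 and H2-M3 at -0.17 (-0.35 to 0.0065). H2-T3 stood at 3.80 CPM with Ccr9 and 3.59 CPM without, within counting error. Among the other class I genes, H2-Q2 ran the opposite way, at 11.6 CPM with Ccr9 and 5.48 CPM without.

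Cells with S1pr1, the sphingosine-1-phosphate receptor that mature thymocytes use to leave the thymus, carried more class I. S1pr1 was present in 2356 cells and absent from 2097. Class Ia was 3454 CPM in cells with S1pr1 and 2393 CPM in cells without (log2 ratio 0.53, 0.51 to 0.55), and class Ib was 1233 CPM and 790 CPM (log2 ratio 0.64, 0.61 to 0.68). The members called higher were 4 (H2-Q4, H2-Q6, H2-Q7 and H2-T22), against a background of 5.52%. Their median log2 ratio was 0.54, beside -0.079 over all genes. H2-Q7 stood at 333 CPM with S1pr1 and 179 CPM without, and the order held in Lta-/- cells (438 CPM and 241 CPM) and in Foxp3eGFP cells (238 CPM and 119 CPM). H2-T3 had a log2 ratio of 0.12 (-0.45 to 0.70), so no difference was detectable at this depth. Beside these values, Nlrc5, the class I transactivator, had 43.5 CPM with S1pr1 and 27.7 CPM without.

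Cells with Ctla4, an inhibitory receptor of the Treg programme, also carried more class I. Ctla4 was present in 920 cells and absent from 3533. Class Ia was 3603 CPM with Ctla4 and 2753 CPM without (log2 ratio 0.39, 0.37 to 0.41), and class Ib 1295 CPM and 941 CPM (log2 ratio 0.46, 0.42 to 0.50). The members called higher were 2 (H2-Q6 and H2-Q7), against a background of 3.89%, and the median of the 10 was 0.38, beside -0.068 over all genes. H2-Q6 had 35.5 CPM with Ctla4 and 16.9 CPM without (log2 ratio 1.07, 0.82 to 1.32), and its per-mouse ratios were 1.06 in Lta-/- cells and 1.11 in Foxp3eGFP cells.

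Cells with Mki67, a marker of proliferation, carried slightly less class I. Mki67 was present in 391 cells, whose median depth was 13443 UMIs, and absent from 4062, whose median was 5266. Class Ia was 2582 CPM with Mki67 and 3001 CPM without (log2 ratio -0.22, -0.24 to -0.19), and class Ib 840 CPM and 1051 CPM (log2 ratio -0.32, -0.37 to -0.28). With each cell thinned to 3000 UMIs the class Ia log2 ratio was -0.064, and with each cell weighing the same it was -0.053. The members called lower were 2 (H2-Q6 and H2-T3), against a background of 18.0% of all genes, so this share is close to the background. The interval of H2-T3 (-1.56 to 0.18) includes 0. H2-Q6 had a log2 ratio of -1.37 (-1.82 to -0.95). The median of the 10 was -0.29, beside -0.11 over all genes.

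**Figure D3:**
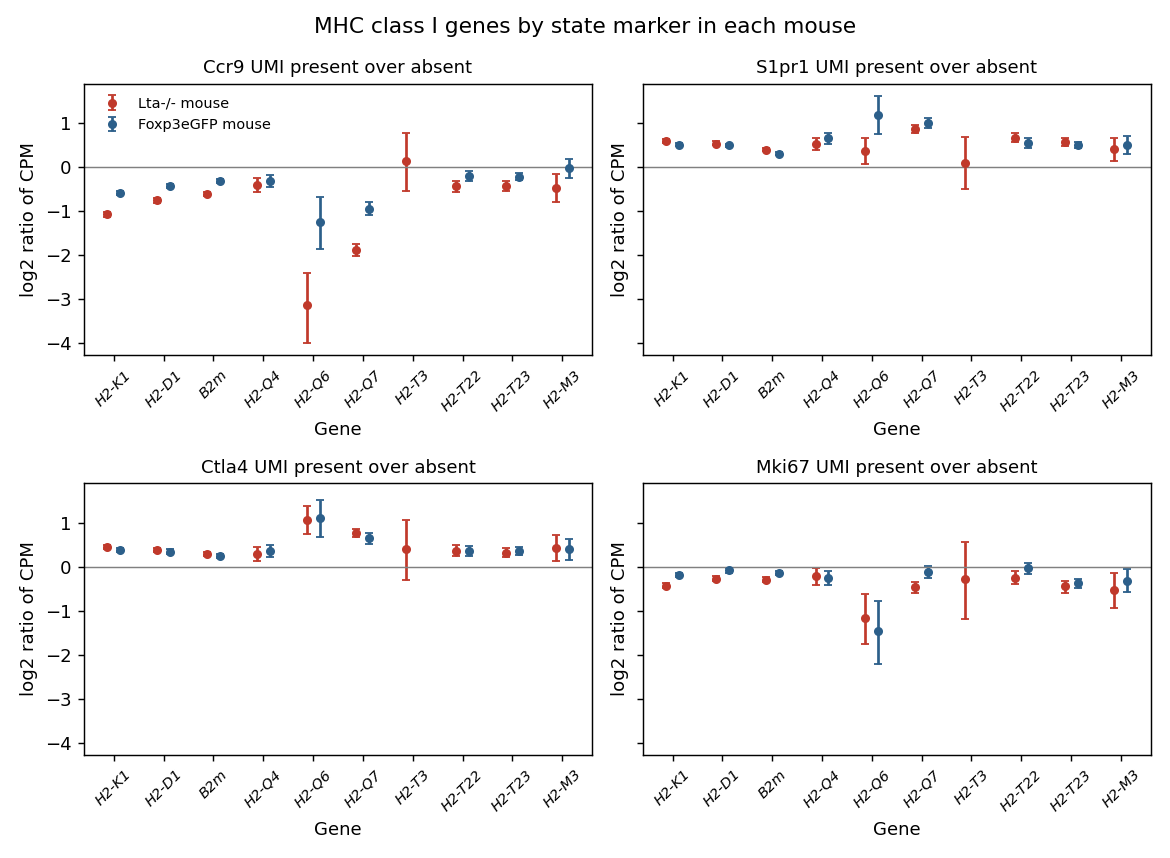
Log2 ratio of CPM in cells with a UMI of Ccr9, S1pr1, Ctla4 or Mki67 over cells without, for each class I gene and each mouse (Lta-/- left of Foxp3eGFP), with 95% intervals for counting error. H2-T3 is not drawn for the Foxp3eGFP mouse, which had 3 UMIs. H2-Q6 and H2-Q7 lie farthest from 0 for Ccr9 in both mice.

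The 4 markers overlap, so cells with exactly 1 of them, or with none, were also compared. Over both mice, summed class Ia had the order only Ccr9 (1533 CPM), only Mki67 (2332 CPM), none (2786 CPM), only S1pr1 (3489 CPM) and only Ctla4 (3742 CPM). Neighbours in this pooled order differed beyond counting error. In class Ib the pooled levels were 593, 698, 869, 1257 and 1251 CPM for the same classes. Pooled, only S1pr1 and only Ctla4 did not differ beyond counting error, but in each mouse they did, in opposite directions. Lta-/- cells had 1320 CPM (1283 to 1357) with only S1pr1 and 1487 CPM (1390 to 1589) with only Ctla4. Foxp3eGFP cells had 1189 CPM (1153 to 1227) and 1052 CPM (977 to 1131). Class Ia in Foxp3eGFP cells, at 3531 CPM and 3570 CPM, did not differ beyond counting error between these classes. H2-Q7 spanned 57.1 CPM in cells with only Ccr9 to 399 CPM in cells with only Ctla4. The mice differed most in the last class, with H2-Q7 at 605 CPM in Lta-/- cells and 226 CPM in Foxp3eGFP cells. In cells with only Ccr9 it stood at 53.8 CPM in Lta-/- cells and 60.4 CPM in Foxp3eGFP cells. H2-Q6 followed the same order, at 1.41 CPM with only Ccr9 (5 UMIs in all) and 46.9 CPM with only Ctla4. H2-T23 ranged less, at 253 CPM with only Ccr9, 248 CPM with only Mki67, 279 CPM with none, 399 CPM with only S1pr1 and 363 CPM with only Ctla4.

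**Figure D4:**
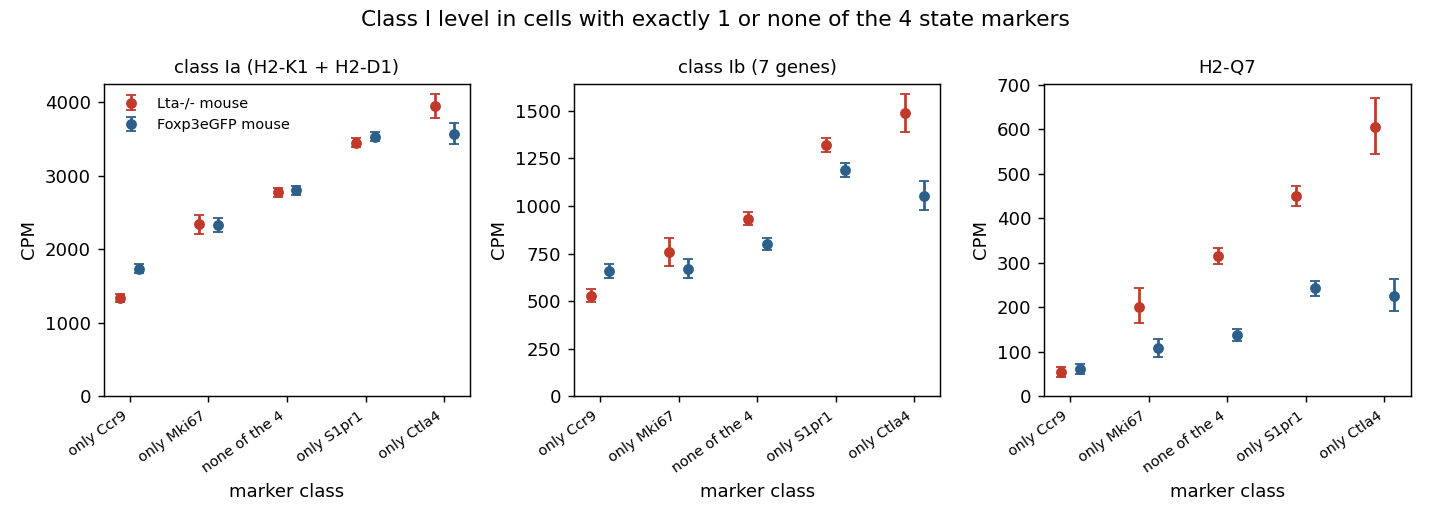
Level in CPM of summed class Ia, summed class Ib and H2-Q7 in cells with exactly 1 of the 4 markers or none, for each mouse (Lta-/- left of Foxp3eGFP), with exact Poisson 95% intervals. The lowest levels are in cells with only Ccr9 in all 3 panels, and H2-Q7 reaches 605 CPM in Lta-/- cells with only Ctla4. For class Ib in Foxp3eGFP cells, the intervals of only Ccr9 (621 to 697 CPM) and only Mki67 (621 to 720 CPM) overlap.

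Cells with more interferon gene UMIs carried more class I transcripts. The 30 genes of the type I interferon response list (28 measured) were summed in cells thinned to 3000 UMIs, and cells were put into 4 bins of about equal size by that sum, holding 0 to 7, 8 to 13, 14 to 21 and 22 to 107 UMIs. Ifi27l2a alone gave 51.8% of the sum. The mice filled the bins unequally, with 37.9% of Lta-/- cells and 20.3% of Foxp3eGFP cells in the lowest and 17.3% and 32.5% in the highest. From the lowest to the highest bin, class Ia stood at 2203, 3142, 3446 and 4080 CPM, and class Ib at 696, 1076, 1251 and 1544 CPM. The top over bottom log2 ratio was 0.89 (0.85 to 0.93) for class Ia and 1.15 (1.08 to 1.22) for class Ib. The Pearson correlation over 4144 cells was 0.37 for class Ia and 0.35 for class Ib, as a description of cells that share depth and library.

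Class Ib genes differed in this link. With the mice pooled, H2-T23 was steepest, at 192, 317, 414 and 540 CPM from the lowest to the highest bin. Its log2 ratio was 1.49 (1.36 to 1.62). H2-T22 followed at 149, 220, 248 and 336 CPM (log2 ratio 1.17, 1.02 to 1.33). H2-K1 had a log2 ratio of 0.99, H2-Q7 of 0.96, H2-Q4 and H2-M3 of 0.93 each, B2m of 0.83 and H2-D1 of 0.77. These ratios pool 2 mice that filled the bins unequally. Pooled, H2-Q6 had the weakest positive ratio of those counted, 0.58 (0.11 to 1.05), and H2-T3 had -0.92 (-2.24 to 0.28), within counting error. In each mouse alone the order was another. In Lta-/- cells H2-T23 was steepest (1.58), followed by H2-Q7 (1.37) and H2-T22 (1.13). In Foxp3eGFP cells H2-T22 (1.44, 1.18 to 1.70) stood above H2-T23 (1.28, 1.09 to 1.47). H2-Q6 had 0.91 in Lta-/- cells and 0.87 (-0.038 to 1.86) in Foxp3eGFP cells, beside 0.79 and 0.81 for H2-D1. H2-M3 had 0.70 and 0.74 in the same order, and H2-T3 had -0.018 in Lta-/- cells. Of the 9 members with at least 50 UMIs, 8 were called higher in the top bin, against a background of 5.86% of 6550 genes, and their median log2 ratio was 0.93, beside -0.086 over all genes. The 9 genes with an interferon-type motif in the lines above had a positive ratio, but that of H2-Q6 was -0.19 when Ifi27l2a was left out of the list, and the interval of H2-T3 includes 0. The motifs were chosen after these values were seen, so a link between motif and ratio was not tested.

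**Figure D5:**
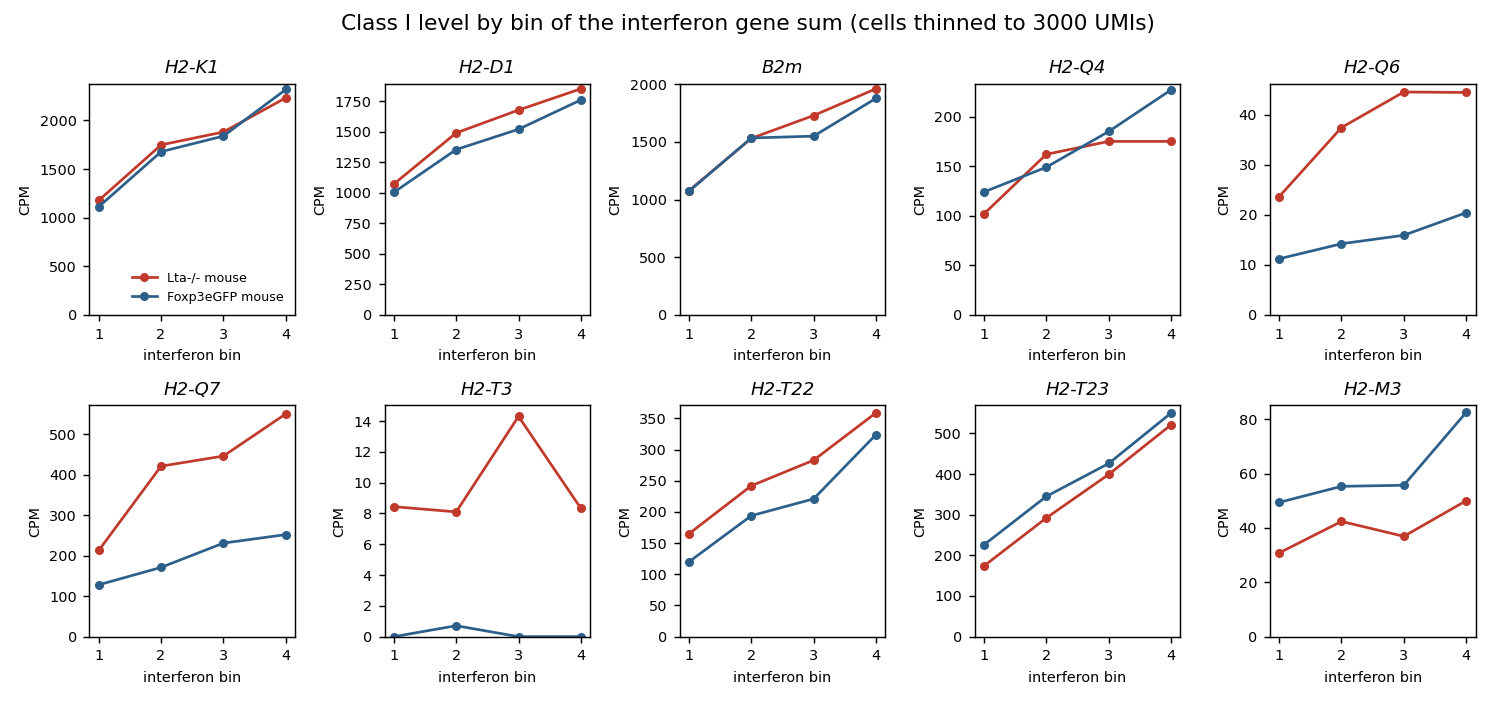
Level in CPM of each class I gene by bin of the summed type I interferon genes (1 is the lowest), for Lta-/- and Foxp3eGFP cells thinned to 3000 UMIs. Points carry no error bars here. H2-T23 goes up at each step in both mice, the H2-Q7 line of the Lta-/- mouse lies above that of the Foxp3eGFP mouse in every bin, and H2-T3 has UMIs in 1 bin of the Foxp3eGFP mouse.

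The ratio held in each mouse. Class Ia had a top over bottom log2 ratio of 0.86 in Lta-/- cells and 0.95 in Foxp3eGFP cells. Class Ib stood at 1708 CPM in the top and 716 CPM in the bottom bin of Lta-/- cells, and at 1456 CPM and 659 CPM in the same bins of Foxp3eGFP cells. H2-Q7 reached 1.37 in Lta-/- cells and 0.98 in Foxp3eGFP cells. Among cells alike in their markers, with the mice pooled, the sums kept a positive ratio and some class Ib genes did not. With only Ccr9, class Ia was 2427 CPM in the upper 139 cells and 1306 CPM in the lower 416 cells by interferon sum (log2 ratio 0.89), and with only S1pr1 3884 CPM and 3392 CPM (log2 ratio 0.20, 0.15 to 0.25). In the same cells H2-T23 had log2 ratios of 1.05 and 0.84. H2-Q7 had 1.23 (0.60 to 1.86) with only Ccr9, but with only S1pr1, the largest class, it stood at 359 CPM in the upper and 378 CPM in the lower cells (log2 ratio -0.075, -0.23 to 0.082). H2-Q6 stood at -0.034 (-0.64 to 0.57) with only S1pr1 and at -0.81 (-1.94 to 0.27) with only Ctla4. With only S1pr1, the upper cells were 272 Lta-/- and 386 Foxp3eGFP cells, and the lower cells 358 and 198. H2-Q7 in this class was 450 CPM in Lta-/- cells and 242 CPM in Foxp3eGFP cells. The part of this unequal mix in the H2-Q7 and H2-Q6 ratios was not tested. Read the other way, within the 4 interferon bins the class Ia log2 ratio of cells with over without the marker ranged from -1.05 to -0.30 for Ccr9, from 0.11 to 0.90 for S1pr1 and from 0.15 to 0.43 for Ctla4, with intervals that left out 0 in all 4 bins. For Mki67 it was -0.37, -0.068, -0.035 and 0.18 from the lowest to the highest bin. The middle values had intervals that include 0, and the ratio turned in the highest bin (0.093 to 0.26). Single genes did not all follow the sum. H2-T23 with over without Ccr9 stood at 0.0027 and 0.0068 in the lowest 2 bins. Beside them, the median interferon sum was 9 in cells with Ccr9 and 14 without, 15 with S1pr1 and 9 without, and 17 with Ctla4 and 12 without.

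Several genes of the class I pathway were also higher in the top bin. Of 14 antigen processing genes, 5 were called higher (Tap1, Tapbp, Psmb8, Psmb9 and Psmb10) and Canx lower (median log2 ratio 0.49), beside 5.86% of 6550 genes called higher and 9.79% called lower. Tap1, a subunit of the peptide transporter, had 216 CPM in the top bin and 99.9 CPM in the bottom bin (log2 ratio 1.11, 0.93 to 1.30). Psmb9, an immunoproteasome subunit, had 352 CPM and 170 CPM (log2 ratio 1.05, 0.91 to 1.20). Of 18 class I transcription genes, 7 were called higher and none lower. Nlrc5 had 52.4 CPM and 25.4 CPM (log2 ratio 1.04, 0.67 to 1.43), and Irf1, an interferon regulatory factor, 221 CPM and 107 CPM (log2 ratio 1.05, 0.86 to 1.23). Of the interferon-gamma associated genes, all 16 measured were called higher.

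Since the mice filled the interferon bins unequally, the genotype ratio was read within them. Class Ia, lower in Lta-/- cells over all cells, had log2 ratios of 0.0019 to 0.095 in the 4 bins, and class Ib of 0.12 to 0.37. H2-Q7 (0.74 to 1.30) and H2-Q6 (1.08 to 1.48) were higher in Lta-/- cells in all 4 bins, and H2-T23 (-0.38 to -0.078) and H2-M3 (-0.72 to -0.38) were lower in all 4. H2-K1 ranged from -0.054 to 0.081, H2-D1 from 0.073 to 0.14 and B2m from -0.003 to 0.16. By marker, H2-Q7 was higher in Lta-/- cells in 4 of 5 classes with exactly 1 marker or none, with -0.17 in cells with only Ccr9, and H2-M3 was lower in all 5 (-1.16 to -0.28). Whether the lower interferon level of Lta-/- cells bears on the class Ia ratio was not tested.

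Markers of other cell types are given beside the genotype values. Cells with at least 2 UMIs of 13 marker genes of B, plasma and myeloid cells made up 1.92% of Lta-/- cells and 1.63% of Foxp3eGFP cells. Of the 13 marker lists, the plasma cell list had 42.0 CPM in Lta-/- cells and 431 CPM in Foxp3eGFP cells, and the gamma-delta T list 38.8 CPM and 77.2 CPM. The CD8 lineage or double-positive list had 70.4 CPM in Lta-/- cells and 110 CPM in Foxp3eGFP cells, and the proliferation list 1870 CPM and 2693 CPM. Shares of cells with any UMI of a list differed less, at 20.1% and 23.2% for plasma and 8.02% and 9.37% for gamma-delta T. They were 21.8% and 21.3% for CD8 and 87.9% and 91.1% for proliferation. Although the CD8 list sum was lower in Lta-/- cells, Cd8a (6.55 CPM and 5.53 CPM) and Cd8b1 (33.5 CPM and 32.4 CPM) were slightly higher there. The other 9 lists had log2 ratios of -0.15 to 0.20, and Pax5, Krt5 and Aire were at 0 UMIs. Their part in the genotype ratios was not tested beyond the following. Without the cells that carried the other-type markers, the log2 ratios were 0.88 for H2-Q6 and 5.17 for H2-T3.

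The genes most like the class I sums were found by Pearson correlation of log2(CPM + 1) over 19 pools of cells (genotype, marker class and lower or upper interferon sum), among 4006 genes, as a description of pools that share cells' source. For class Ia these were Ms4a4b (0.94), Lfng (0.91), AW112010 (0.90), Ms4a6b (0.90) and Ly6a (0.89), and for class Ib Shisa5 (0.96), Gabarap (0.94), Jund (0.94), Mndal (0.93) and Ifi203 (0.92). B2m correlated with class Ia at 0.95, class Ia with class Ib at 0.93, and H2-T3 with class Ia at 0.089.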

How the data were processed

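Single-cell RNA and hashtag libraries came from 1 capture of pooled cells of 2 mice. The authors deposited 1 matrix of raw UMI counts, whole numbers that were not normalized. The submitters' processing notes name Cell Ranger 6.0.1 and the builds mm10 and GRCm38, and its settings are not given in the sources used. No columns of per-sample values were left unused (0).

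Of 4798 distinct barcodes, 4638 passed a floor of 500 genes and a ceiling of 10% mitochondrial UMIs. A cell was given the genotype of a hashtag with 10 counts or more and a share of 80% or more among hashtags. The deposited feature names, which pair each hashtag with a genotype, were followed, although the labels' protocols give other antibody numbers. The 185 cells with both hashtags (3.99%, median 10532 UMIs) were left out, and no doublet caller was run.

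UMIs were summed over cells and scaled to CPM. Intervals are exact throughout: conditional binomial for ratios, Clopper-Pearson for shares and Poisson for levels. Their calculation was checked on simulated data. Because cells of 1 mouse are not replicates, no p-value was computed. A marker class needed 1 UMI. Interferon bins used cells thinned to 3000 UMIs, which left out 162 Lta-/- and 147 Foxp3eGFP cells. Depth limits low genes such as H2-T3. All 10 members were named, and genes of 5 gene lists (other class I, antigen processing, class I transcription, type I interferon, interferon-gamma) past 1.5-fold with at least 50 UMIs could be named. Background shares used genes with at least 100 UMIs, a higher floor than that of these 5 lists. There were also 13 cell type marker lists. A second call rule, with a smaller fold and a higher UMI floor, was computed and is not reported. The members and lists were chosen with earlier results of these data known. A RefSeq table of the same build (GRCm38) placed 97.2% of 9661 genes. Alternatives covered cell filters, thinning, cell weighting, CPM totals, hashtag and marker thresholds, single mice, and interferon lists and groupings. Software was Python 3.11.15 with numpy 2.4.6, scipy 1.17.1, pandas 2.3.3 and matplotlib 3.10.9.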

Additional observations from a re-analysis of the deposited data

Results flagged for a closer look

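The genotype ratio had opposite signs in different marker classes, and these differences were not tested. In cells with only Ccr9, the log2 ratio of Lta-/- over Foxp3eGFP cells was -0.51 for H2-K1, -0.25 for H2-D1, -0.38 for class Ia and -0.32 for class Ib. In cells with only Ctla4 it was 0.12 for H2-K1, 0.18 for H2-D1, 0.14 for class Ia and 0.50 for class Ib. Between all cells with and without a Ccr9 UMI, the ratio was -0.27 and 0.048 for H2-D1, and -0.28 and 0.20 for class Ib. The median interferon sum of cells with Ccr9 was 6 in Lta-/- cells and 13 in Foxp3eGFP cells, and its part in these ratios was not tested.

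H2-T3 was also counted in the cells with both hashtags, which no comparison used. A UMI was present in 7 of those 185 cells, or 3.78% (1.53% to 7.64%), beside 4.32% of Lta-/- cells (3.52% to 5.25%) and 0.136% of Foxp3eGFP cells. The median depth of the cells with both hashtags was 10532 UMIs, against 5395 in Lta-/- cells and 5547 in Foxp3eGFP cells.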

How the results depend on the processing

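Of 616 values recomputed for the 10 genes and the class Ia and class Ib sums, 607 kept their sign, as did 103 of 104 values of the sums. The exception among the sums was class Ia between genotypes (log2 ratio -0.071), which was 0.067 averaged over the interferon bins. Class Ib between genotypes (0.11) was 0.26 there and 0.061 with cells thinned to 3000 UMIs. H2-K1 and B2m between genotypes also turned, to 0.029 and 0.056 over the bins, and H2-D1 (-0.006) kept its sign in 5 of 8 alternatives and was 0.11 over the bins. H2-T3 by interferon (-0.92) was 0.10 with the interferon-gamma list. Thinning gave -0.53 for Ccr9 class Ib, 0.46 and 0.55 for S1pr1 class Ia and Ib, 0.42 and 0.53 for Ctla4, and -0.064 and -0.22 for Mki67. With each cell weighing the same, Ccr9 class Ia was -0.75, S1pr1 0.42 and 0.53 (class Ia, class Ib), Ctla4 0.34 and 0.38, and Mki67 -0.053 and -0.17. CPM without mitochondrial, ribosomal protein and interferon genes gave -0.76 and -0.65 for Ccr9, 0.59 and 0.70 for S1pr1, 0.44 and 0.51 for Ctla4, and -0.34 and -0.45 for Mki67. At least 2 UMIs of the marker gave -0.90 and -0.67 for Ccr9, 0.40 and 0.50 for S1pr1, and -0.26 and -0.37 for Mki67. Only this marker against none gave -0.86 for Ccr9 class Ia, 0.32 and 0.53 for S1pr1, 0.43 and 0.52 for Ctla4, and -0.26 for Mki67 class Ia. Lta-/- cells alone gave -0.92 and -0.84 for Ccr9, 0.56 for S1pr1 class Ia, 0.42 and 0.50 for Ctla4, -0.35 and -0.40 for Mki67, and 1.254 for interferon class Ib. Foxp3eGFP cells alone gave -0.53 and -0.35 for Ccr9, 0.50 for S1pr1 class Ia, 0.36 for Ctla4 class Ia, -0.14 and -0.25 for Mki67, and 0.95 for interferon class Ia. For the top over bottom interferon ratio, the interferon-gamma list gave 0.55 and 0.85, the upper over the lower of 2 groups of cells gave 0.53 and 0.70, and the list without Ifi27l2a, added after the data were seen, gave 0.60 and 0.88. The cause of these shifts was not tested. No paired analysis was possible because each genotype is 1 mouse with no shared replicate number, and for the same reason no replicate could be left out. At this depth, H2-T3 differences between marker classes were not detectable.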

Other observations

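The antigen processing list had a median near 0 in all 4 marker contrasts. Of its 14 genes, none was called with Ccr9, Ctla4 or Mki67 (median log2 ratios of -0.077, -0.0067 and -0.011). Of all 9661 genes, 4.77% were called higher and 3.24% lower with Ccr9, and 3.89% and 7.60% with Ctla4. For these 2 markers, no call among 14 genes is close to the background. With Mki67, 12.6% of all genes were called higher and 18.0% lower, so the list had fewer calls than the background. With S1pr1 the median of the list was 0.02, and Canx had 147 CPM in cells with S1pr1 and 233 CPM in cells without. Tap1 had 127 CPM in cells with Ccr9 and 154 CPM in cells without, and Psmb8 had 756 CPM and 817 CPM in the same cells. The medians of the interferon lists lay farther from 0 than those of this list in all 4 marker contrasts. With S1pr1, 9 of 28 type I interferon genes and 6 of 17 interferon-gamma associated genes were called higher and none lower (medians 0.52 and 0.51), against a background of 5.52% called higher. With Ccr9, 6 of the 28 and 4 of the 17 were called lower and none higher (medians -0.29 and -0.33), against 3.24% called lower. With Ctla4, 2 of the 28 and 4 of the 17 were called higher and none lower (medians 0.24 and 0.22), against 3.89% called higher. With Mki67, 10 of the 28 and 9 of the 17 were called lower (medians -0.29 and -0.67), against 18.0% of all genes. In each list 1 gene was called higher with Mki67. These lists take in genes from 50 UMIs, while the background shares take in genes from 100 UMIs. Ifngr1, a chain of the interferon-gamma receptor, had 150 CPM in cells with S1pr1 and 73.2 CPM in cells without. With Mki67, 8 of 18 class I transcription genes were called lower, among them Nlrc5 and Irf1 (median -0.51), against 18.0% of all genes called lower.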
